A study of Mus musculus with 17 samples.

Results

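The HoxD cluster of the mouse holds 9 homeobox genes, Hoxd13, Hoxd12, Hoxd11, Hoxd10, Hoxd9, Hoxd8, Hoxd4, Hoxd3 and Hoxd1, in that order along chromosome 2. It was taken from the start of Hoxd13 to the end of Hoxd1, at chr2:74506367-74603200 in build mm9, a stretch of 96.8 kb. Every loop with at least 1 anchor overlapping this stretch was used, which gave 621 of the 1211657 distinct loops of the series. A loop is a pair of genome intervals, its anchors, with a count of the read pairs that join them. The loops came from H3K27ac HiChIP, which joins DNA ends that lie close together in the nucleus and keeps those bound to histone H3 acetylated at lysine 27, a mark of active promoters and enhancers. The cells were mouse embryonic stem cells of the R1 line, grown as hanging-drop embryoid bodies and treated with 0.5 µM retinoic acid for 4 days. Bulk libraries, 12 in number, were made from all cells of the treated bodies. The 5 libraries labelled cluster2 were made from cells of the same treatment that were sorted as positive for both surface proteins EpCAM and CD38, so the bulk cells also contain cells of the sorted kind. Both groups had received retinoic acid, no untreated library was analysed here, and the comparison is between the sorted cells and the whole population. Per the methods the EpCAM and CD38 cells came from 5 independent sorts, and which sort gave which library is not stated in the sources used here. For the bulk libraries no source used here tells of separate cultures, so the p-values measure the spread between libraries, which may be technical in that group. In such pooled cells, fewer cells of a kind and less signal per cell cannot be told apart.

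Hox genes encode transcription factors that set position along the body axis, and their order in a cluster follows the order in which they are used from head to tail. Genes at the Hoxd1 end are used early and far forward, and respond directly to retinoic acid through receptors bound to DNA near them. Genes at the Hoxd13 end are used late, in the trunk, limb and digits. The cluster lies between 2 long stretches poor in genes, called gene deserts, which are known to hold enhancers that contact the cluster in limbs and other tissues. Here the centromeric desert, on the Hoxd13 side, ran from the promoter of Atp5g3 to Lnp over 604 kb, and the telomeric desert, on the Hoxd1 side, ran from the end of Mtx2 to the promoter of Hnrnpa3 over 776 kb.

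The libraries held between 50508 and 241202 read pairs in loops. The loop files of the 2 groups used different sets of anchors, and this bears on each result below. After overlapping anchors were joined, 15074 lay in both sets, 200999 only in the bulk set and 8 only in the cluster2 set. Where a region holds no cluster2 read pair, the files do not show whether its anchor was not called or was called without a loop. Results were therefore also computed on the loops whose anchors both lie in both sets, termed shared anchors here. Among protein-coding genes the median log2 difference, cluster2 minus bulk, was -0.52 with the scaling by trimmed mean of M-values (TMM), 1.21 with library size alone and 0.42 on shared anchors, so differences are also given relative to the median gene. Neither sorted marker passed the test with TMM scaling. Epcam had 13 read pairs over the bulk libraries and 10, 2, 6, 1 and 6 in cluster2 replicates 1 to 5, with a log2 difference of 1.05 ± 0.57 (SE, edgeR adjusted p = 0.107). Cd38 had 36 in bulk and 21, 6, 2, 8 and 14 in the cluster2 libraries, with a log2 difference of 0.65 ± 0.44 (SE, edgeR adjusted p = 0.195). With library size alone both were called higher in cluster2, at 2.75 and 2.38, and on shared anchors Cd38 was, at 1.86.

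The cluster as a whole had fewer read pairs in cluster2 than in bulk. Over the 12 bulk libraries the HoxD loops held 1538 read pairs, between 50 and 327 per library with a median of 92.5. Cluster2 replicates 1 to 5 held 35, 27, 21, 13 and 28, or 124 in all. Every cluster2 library was therefore below every bulk library. The same was true of CPM, the counts of read pairs scaled to the library total in loops, where bulk ranged from 453 to 1356 with a median of 766, and cluster2 replicates 1 to 5 gave 296, 314, 411, 257 and 270. After TMM scaling the mean was 1250 ± 353 CPM in bulk (SD, n = 12) and 128 ± 23.5 in cluster2 (SD, n = 5). The log2 difference was -3.29 ± 0.24 (SE, edgeR adjusted p = 1.12e-13), or -2.77 relative to the median gene. With library size alone it was -1.52, or -2.74 relative to the median gene, and on shared anchors it was -3.36, or -3.78 relative to the median gene.

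**Figure D1:**
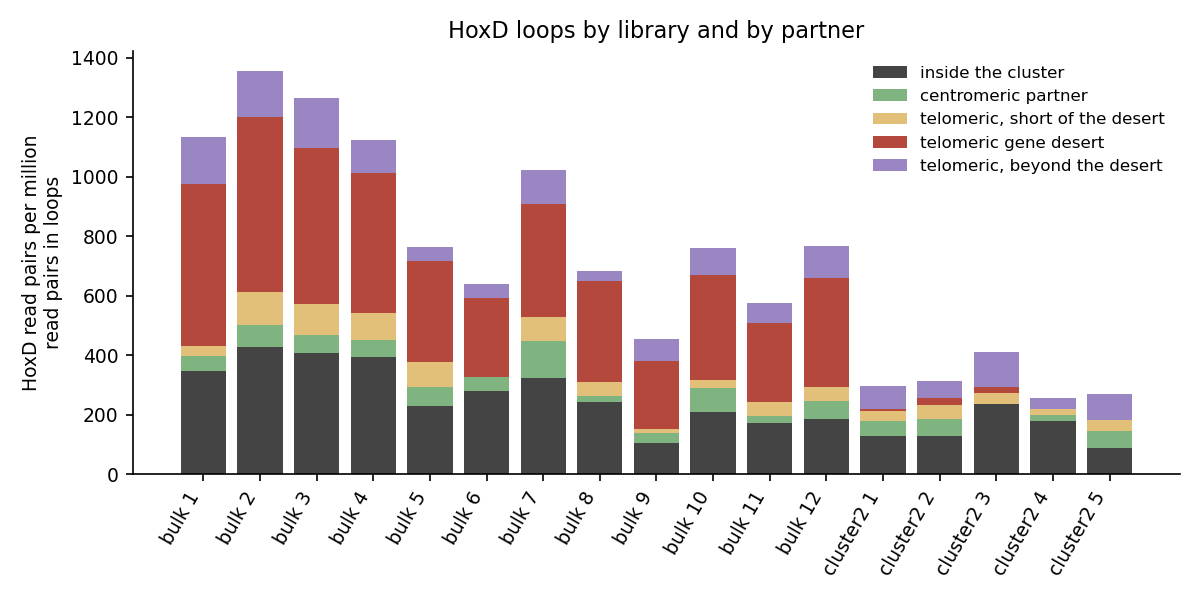
Read pairs of HoxD loops in CPM of the library total (y axis, linear) in each of the 17 libraries (x axis), stacked by the place of the partner anchor. The 5 cluster2 bars lie between 257 and 411, below the lowest bulk bar at 453, and the segment for the telomeric gene desert is nearly missing from them.

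The partners of the HoxD anchors also differed. In bulk, 488 of the 1538 read pairs, or 31.7%, had both anchors inside the cluster. A further 952, or 61.9%, led to a partner on the telomeric side, and 98, or 6.37%, to a partner on the centromeric side. In cluster2, 56 of the 124, or 45.2% (95% exact binomial interval 36.2 to 54.3%, counting error only), stayed inside. The telomeric side took 50, or 40.3% (31.6 to 49.5%), and the centromeric side 18, or 14.5% (8.84 to 22.0%). All 3 kinds of read pair passed the test as lower in cluster2. Inside the cluster the bulk libraries held 12 to 103 read pairs with a median of 30.5, and the cluster2 libraries 15, 11, 12, 9 and 9, with a log2 difference of -2.75 ± 0.28 (SE, edgeR adjusted p = 3.55e-10). On the telomeric side bulk held 27 to 206 with a median of 57, and cluster2 held 14, 11, 9, 3 and 13, with a log2 difference of -3.91 ± 0.26 (SE, edgeR adjusted p = 2.35e-14). The centromeric side was sparse, with 2 to 22 in bulk and 6, 5, 0, 1 and 6 in cluster2. Its log2 difference of -2.20 ± 0.43 (SE, edgeR adjusted p = 3.94e-05) did not pass the test with library size alone (-0.47, adjusted p = 0.327) or on shared anchors (-1.11, adjusted p = 0.0688).

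The make-up of a library's HoxD read pairs needs no scaling between libraries, and 5 such measures were compared by the exact permutation test (two-sided, 6188 assignments of libraries to groups), with p-values adjusted over the 5. The telomeric share was 49.1 to 69.6% in bulk with a median of 62.5%, and 40.0%, 40.7%, 42.9%, 23.1% and 46.4% in cluster2 replicates 1 to 5. The groups did not overlap, and the difference of the means was -23.5 percentage points (exact permutation p = 0.000162, the smallest this design can give, adjusted p = 0.000269). The inside share was 23.2 to 43.6% in bulk with a median of 31.1%, and 42.9%, 40.7%, 57.1%, 69.2% and 32.1% in cluster2. It was higher in cluster2 by 17.2 percentage points on average (exact permutation p = 0.00323, adjusted p = 0.00404), with ranges that overlapped. The centromeric share differed by 6.26 points (exact permutation p = 0.0331, adjusted p = 0.0331). That call was lost without cluster2 replicate 1, 2 or 5 or bulk replicate 11, where the difference was 5.21, 4.87, 4.14 and 6.01 points. It was also lost with all libraries thinned to 50508 read pairs (0.947 points, exact permutation adjusted p = 0.769), with the cluster extended by 10 kb (5.65) and with each loop counted once (5.25). The median span of a HoxD read pair was 194 to 384 kb in bulk with a median of 232 kb, and 99.0, 112, 42.9, 15.5 and 170 kb in the cluster2 libraries. The groups did not overlap, and the means differed by -175406 bp (exact permutation p = 0.000162, adjusted p = 0.000269).

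These shares rested on which anchors the files list. On shared anchors alone the inside share turned round, to a mean of 72.3 ± 7.67% in bulk (SD, n = 12) and 48.4 ± 14.7% in cluster2 (SD, n = 5). There the telomeric share averaged 24.7 ± 8.84% in bulk and 38.6 ± 9.04% in cluster2, and the difference of 13.96 points had the opposite sign to that over all anchors. The median span also turned round, to a mean of 15508 bp in bulk and 87852 bp in cluster2, a difference of 72344 bp (exact permutation adjusted p = 0.00404). Among read pairs spanning at least 20 kb the span difference was 150686 bp and did not pass the test (exact permutation adjusted p = 0.207). Only 658 of the 1538 bulk read pairs, or 42.8%, lay on shared anchors, while all 124 cluster2 read pairs did. The lower total of read pairs at the cluster did not turn round on shared anchors.

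The telomeric gene desert held the largest share of the bulk read pairs that left the cluster. It took 673 of the 1538 bulk read pairs, or 43.8%, at 88 partner anchors. Each bulk library had between 23 and 142 such read pairs, which made 37.1 to 50.7% of its HoxD total. Cluster2 replicates 1 to 5 had 1, 2, 1, 0 and 0, or 4 of 124 in all (3.23%, 95% exact binomial interval 0.886 to 8.05%). All 12 bulk libraries lay above all 5 cluster2 libraries. Of the 88 desert anchors, only 2 were in the cluster2 set. The direction of the difference over all 88 was therefore largely fixed, and neither its fold nor its p is given. These 2 anchors carried 79 bulk read pairs to the cluster against 4 in cluster2, and the log2 difference on shared anchors was -4.92 (edgeR adjusted p = 5.83e-23). The split of the flanks into segments was made with values known.

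The 3 desert anchors with the most bulk read pairs lie 291 to 372 kb beyond the end of Hoxd1. The leading one, at chr2:74926247-74930005, overlaps no annotated gene. It joined the cluster by 68 read pairs in bulk, with at least 1 in each of the 12 libraries, and by 1 and 2 in cluster2 replicates 1 and 2 and none in the other 3. The next, at chr2:74974248-74976966, overlaps the noncoding gene Gm13652 and had 54 read pairs in bulk, also in all 12 libraries. The third, at chr2:74892367-74895582, lies outside annotated genes and had 38 in 10 bulk libraries. Neither of the last 2 anchors was in the cluster2 set or had a cluster2 read pair. HoxD was a main partner of these places in bulk. The cluster took 34.3%, 65.1% and 69.1% of all read pairs of the 3 anchors, in that order.

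The bulk loops between the leading desert anchor and the cluster ended mostly on the Hoxd3 anchors. The anchor at chr2:74576073-74580151, which has a start site of Hoxd3 inside and holds intron over most of its length, shared 17 bulk read pairs with it in 8 libraries and none in cluster2. The sequence was read at both ends of this loop, because each end holds 1 pair of binding hexamers of the retinoic acid receptor in the same direction spaced by 5 bases, the arrangement known as DR5. The hexamers searched, on both strands, were AGGTCA, its variant AGTTCA, the form GGGTCA and the form GGTTCA. The windows below are 200 bases of the plus strand in mm9, with the repeat and its spacer in capitals. The first is in an intron of Hoxd3, at chr2:74579506-74579705, and the second is intergenic, at chr2:74927797-74927996. The third is an intergenic anchor beyond the desert, at chr2:75610011-75610210, where the repeat reads on the minus strand. It is shown because it is among the partners of the cluster with most cluster2 read pairs, with 6 against 4 in bulk.
Hoxd3 intron: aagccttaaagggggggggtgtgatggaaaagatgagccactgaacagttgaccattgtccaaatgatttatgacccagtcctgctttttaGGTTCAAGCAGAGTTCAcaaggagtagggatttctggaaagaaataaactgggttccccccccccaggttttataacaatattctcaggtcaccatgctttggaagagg
telomeric desert: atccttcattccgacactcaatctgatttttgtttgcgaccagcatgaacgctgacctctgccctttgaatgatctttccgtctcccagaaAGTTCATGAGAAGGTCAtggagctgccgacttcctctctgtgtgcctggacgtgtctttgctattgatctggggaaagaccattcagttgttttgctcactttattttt
beyond the desert: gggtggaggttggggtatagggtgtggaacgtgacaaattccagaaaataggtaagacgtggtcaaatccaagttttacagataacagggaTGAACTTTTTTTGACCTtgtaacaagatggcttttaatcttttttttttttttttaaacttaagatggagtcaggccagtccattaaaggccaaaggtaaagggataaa
A DR5 match was found in 1 of the 15 cluster anchors and in 1 of the 88 desert partners. It was also found in 1 of the 11 telomeric partners short of the desert and in 2 of the 69 beyond it. Among all 50778 joined anchors of 3000 to 5000 bp in the genome, 1.83% held a DR5 match. The third anchor shown is wider, at 6217 bp. Repeats spaced by 2 bases were searched too, and were found in 3 of the 88 desert partners and 3 of the 69 beyond, against 3.95% of those joined anchors. Matches are descriptions of these letters, and binding was not measured here.

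**Figure D2:**
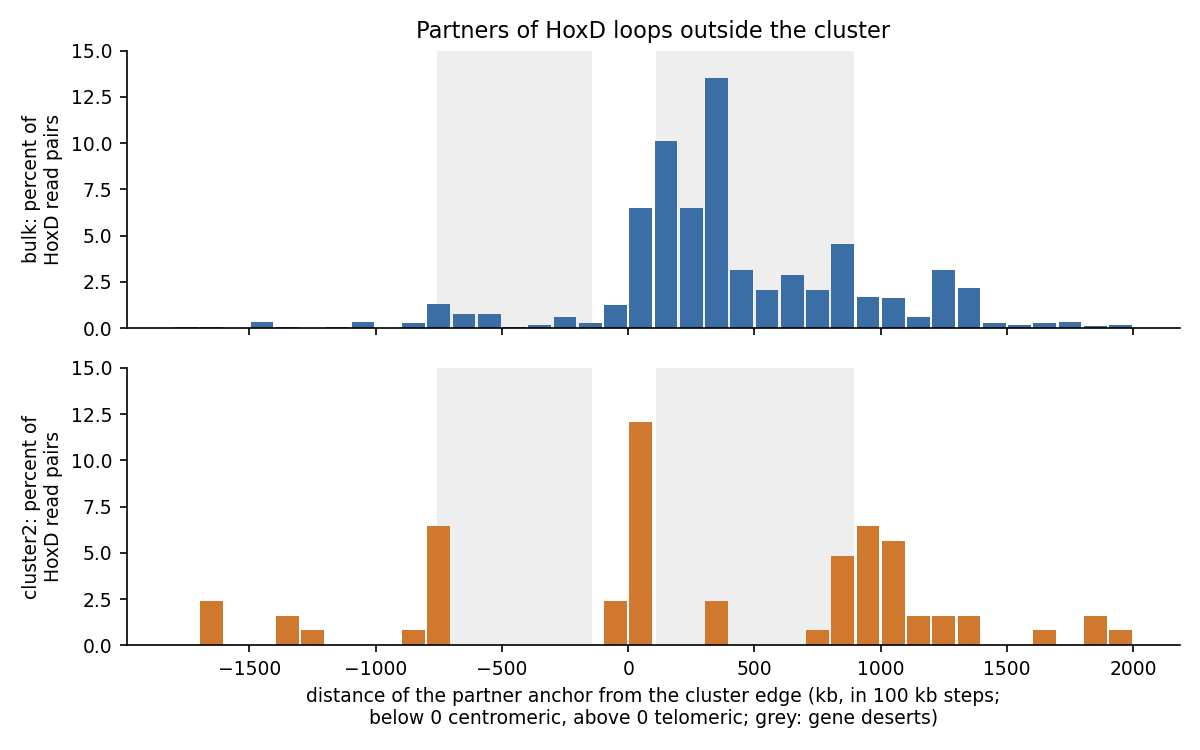
Share of each group's HoxD read pairs (y axis, percent) by the distance of the partner anchor from the nearer edge of the cluster (x axis, kb, in steps of 100 kb), for bulk (upper panel) and cluster2 (lower panel), with the gene deserts in grey. Bulk read pairs fill the telomeric desert, with 13.5% of the total in the step from 300 kb, while those of cluster2 lie mainly at the edges of the deserts and beyond. Only 2 of the 88 partner anchors in the telomeric desert were in the cluster2 set.

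The centromeric desert had far fewer HoxD read pairs. Bulk libraries held between 1 and 7 each, 44 in all, at 28 partner anchors, and no cluster2 library held any. Of these 28 anchors, 1 was in the cluster2 set. The segment had read pairs in bulk alone, so neither a fold nor a call is given. Beyond the 2 deserts the groups differed less, but a larger part of the partner anchors was in the cluster2 set there. It was 8 of 20 past the centromeric desert and 16 of 69 past the telomeric one, and the part of this in the smaller differences was not tested. Past the centromeric desert the bulk libraries held 35 read pairs in all and the cluster2 libraries 6, 5, 0, 0 and 4, with a log2 difference of -0.97 ± 0.54 (SE) that did not pass the test (edgeR adjusted p = 0.117). Past the telomeric desert bulk held 4 to 37 and cluster2 held 9, 5, 6, 2 and 9, with a log2 difference of -2.15 ± 0.34 (SE, edgeR adjusted p = 1.84e-06). With library size alone the 2 values were 0.72 and -0.41, and neither passed the test. The stretch between the cluster and the centromeric desert held 19 bulk read pairs, of which 14 came from bulk replicate 7. On the centromeric side the leading partner in bulk was the promoter of Atf2, a transcription factor gene, with 12 read pairs in 4 libraries and 3 in cluster2. No other anchor on that side had more than 4 in bulk, and the desert anchors at chr2:73828087-73831520 and chr2:73966335-73969353 were among those with 4.

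In cluster2 the partners outside the cluster were mostly promoters. Of the 68 cluster2 read pairs that left the cluster, 55, or 80.9%, ended within 5 kb of the start of a protein-coding gene, against 115 of 1050, or 10.95%, in bulk. Per library this share was 3.23 to 17.1% in bulk with a median of 8.67%, and 70.0%, 81.2%, 77.8%, 100% and 89.5% in cluster2, without overlap. This measure was chosen after values were seen and was not tested. It also moves with the anchor sets, since 29 of the 223 partner anchors were in the cluster2 set. These 29 took 201 of the 1050 bulk read pairs. The promoter share over all loops of each group is not given here, so the contrast is not shown to be particular to HoxD. The partner with most cluster2 read pairs was the promoter of Mtx2, which encodes a protein of mitochondrial import and is the first gene past Hoxd1. The anchor at chr2:74662877-74665877 joined the cluster by 30 read pairs in 9 bulk libraries and by 4, 4, 2, 1 and 4 in the cluster2 libraries. The promoter of Hnrnpa3, an RNA-binding protein at the far edge of the telomeric desert, had 10 in bulk and 6 in 4 of the cluster2 libraries. The promoter of Atp5g3, a subunit of ATP synthase at the far edge of the centromeric desert, had 3 in bulk and 4 in cluster2.

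Inside the cluster, 15 joined anchors were found, numbered here from 1 at the Hoxd13 end to 15 at the Hoxd1 end. Bulk read pairs rose from the Hoxd13 end to a peak in the Hoxd3 region. Anchor 1, over the start of Hoxd13, held 14 bulk read pairs, and anchors 2 to 8, from Hoxd13 to Hoxd8, held 6 to 31 each. Anchors 11, 12 and 13, at chr2:74567848-74573520, chr2:74576073-74580151 and chr2:74583069-74589276, held 424, 537 and 552. Per kb of anchor, over the 12 bulk libraries, these 3 held 74.8, 132 and 88.9 read pairs, and anchors 1 to 8 held 2.14 to 10.7. Anchors 11 and 12 lie within Hoxd3 and are almost without exon, and anchor 13 covers the end of Hoxd3.

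In cluster2 the counts were more even. Anchor 9, at the first start of Hoxd3, had the most read pairs with 30, and anchors 11, 12 and 13 held 20, 28 and 28. Anchor 7, over the start of Hoxd9, held 28, with 13, 6, 2, 4 and 3 in the 5 libraries, and had the most per kb. Anchors 9 to 15, from Hoxd3 to Hoxd1, still took 69.4% of the cluster2 anchor ends. Anchors 2 to 6, from the end of Hoxd13 to Hoxd10, held 6 to 24 bulk read pairs each and none in cluster2, and none of these 5 was in the cluster2 set. Anchors 1 to 8 took 6.47% of the bulk anchor ends and 30.6% of those of cluster2. Per library that share was 1.54 to 21.4% in bulk, where the highest value was that of bulk replicate 7, and 40.0%, 34.2%, 18.2%, 36.4% and 21.6% in cluster2. The split at Hoxd3 was made with values known and was not tested.

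Of the 15 anchors, 11 could be tested and 8 were lower in cluster2, against 75.5% of all anchors of the genome. Anchor 6 is among the 8 and was not in the cluster2 set. The share is near the background and says nothing particular about the cluster. On shared anchors 9 could be tested and 7 were lower, against 15.2% of all anchors. The 7 were anchors 9 to 15, from Hoxd3 to Hoxd1. Anchor 12 had a log2 difference of -3.79 ± 0.35 (SE, edgeR adjusted p = 2.79e-13) over all anchors and held 13 to 127 read pairs in each bulk library against 6, 7, 6, 1 and 8 in cluster2. Anchors 1, 7 and 8 did not pass the test. Anchor 7, at Hoxd9, had 20 read pairs in bulk and 28 in cluster2, with a log2 difference of 0.73 ± 0.57 (SE, edgeR adjusted p = 0.230). With library size alone anchors 7 and 8 were called higher in cluster2, by 2.35 and 1.198 on the log2 scale.

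**Figure D3:**
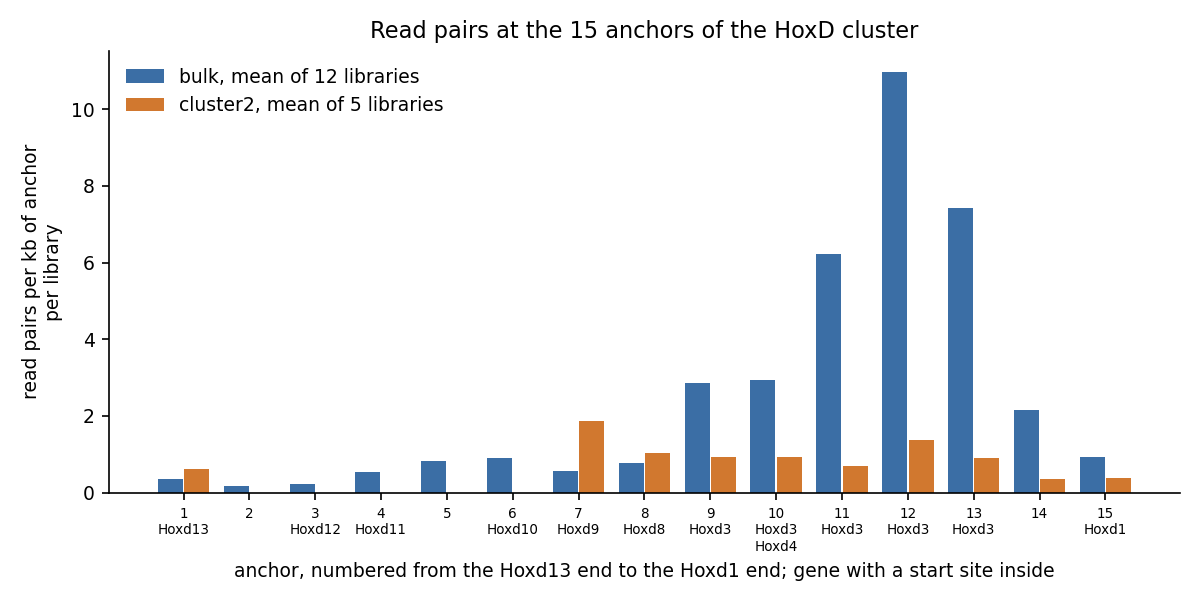
Read pairs per kb of anchor and per library (y axis) at the 15 anchors of the HoxD cluster (x axis), numbered from the Hoxd13 end, with the gene whose start site lies inside. Bars are group means over the libraries at their own depth, unscaled. Bulk has its peak at anchors 11 to 13 within Hoxd3, and anchor 7 at Hoxd9 is the tallest of the cluster2 bars.

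The 9 genes were compared through loops whose anchor lay no more than 5 kb from one of their start sites, by the summed read pairs. Neighbouring genes can share an anchor, so their values are not independent. Among the genes, 8 passed the filter on low counts, 6 were lower in cluster2 and none was higher, against 42.8% of all 14115 genes tested that were lower. Hoxd10 and Hoxd11 are among the 6, but they had no anchor in the cluster2 set and passed the filter through bulk alone, so their direction was fixed. Hoxd13 is also among the 6, and only 1 of its 3 anchors was in the cluster2 set. The median log2 difference of the 8, which counts Hoxd10 and Hoxd11, was -2.71, against -0.52 for all genes tested. It is therefore pulled down by 2 genes whose direction was fixed. On shared anchors 5 could be tested and 3 were lower, Hoxd1, Hoxd3 and Hoxd4, against 988 of all 9845 genes tested there.

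Hoxd3 and Hoxd4, which act in the hindbrain and neck, had most of the read pairs of the cluster. Loops at Hoxd3 held 44 to 311 read pairs per bulk library with a median of 87.5, and 23, 18, 16, 9 and 21 in the cluster2 libraries. The groups did not overlap, and the log2 difference was -3.66 ± 0.24 (SE, edgeR adjusted p = 1.16e-14). Loops at Hoxd4 held 18 to 158 per bulk library with a median of 42.5, and 15, 11, 10, 5 and 11 in cluster2. All cluster2 libraries again lay below all bulk libraries, and the log2 difference was -3.37 ± 0.27 (SE, edgeR adjusted p = 1.09e-12). The 3 anchors of Hoxd4, numbers 9, 10 and 11, are all anchors of Hoxd3 too. Every read pair of Hoxd4 is thus also counted at Hoxd3, and the 2 results are not separate. Per kb of anchor Hoxd3 had 57.4 and Hoxd4 48.1 read pairs over the bulk libraries, the highest levels of the 9 genes, and 3.55 and 3.66 in cluster2. Both kept their call under every alternative that was run. Hoxd3 has several annotated start sites, and with its first start site alone the log2 difference was -2.73.

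Hoxd1, the gene closest to the telomeric desert, had few read pairs. Bulk libraries held 0 to 7 with a median of 1, and the cluster2 libraries 0, 1, 1, 1 and 2. The groups overlapped, and the log2 difference of -2.06 ± 0.65 (SE, edgeR adjusted p = 0.00597) was not called with library size alone (-0.46). Per kb of anchor Hoxd1 held 11.3 read pairs in bulk, about the level of Hoxd10 at 10.2.

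Hoxd8 and Hoxd9, which act in the trunk, did not pass the test. Loops at Hoxd8 held 1 to 18 read pairs per bulk library with a median of 2, and 16, 10, 6, 4 and 4 in cluster2, with a log2 difference of -0.11 ± 0.45 (SE, edgeR adjusted p = 0.842). Loops at Hoxd9 held 0 to 15 with a median of 2 in bulk, and 13, 6, 2, 4 and 3 in cluster2, with a log2 difference of -0.43 ± 0.50 (SE, edgeR adjusted p = 0.457). Relative to the median gene these were 0.41 and 0.08. The sign turned positive without bulk replicate 7, at 0.37 and 0.03, and both genes were called higher with library size alone, at 1.65 and 1.32. In cluster2 these 2 genes had the highest read pairs per kb of anchor of the 9, with 6.35 at Hoxd8 and 5.34 at Hoxd9, above Hoxd4 and Hoxd3. In bulk they stood at 8.09 and 8.20, below Hoxd3, Hoxd4, Hoxd1 and Hoxd10. Both genes take anchor 7, which held all 28 cluster2 read pairs of Hoxd9. Each of these is thus also counted at Hoxd8, and the 2 results are not separate. The other anchor of Hoxd9, anchor 6, held 24 bulk read pairs and was not in the cluster2 set. On shared anchors Hoxd9 was at 0.66 and was not called. The 250 bases before the start of Hoxd8, from the RefSeq promoter table of GRCm38.p6 and matched once and exactly to mm9 at chr2:74542422-74542671, are shown as the promoter of a gene that did not pass the test in a cluster that did. The single receptor hexamer in it is in capitals, and 38.6% of all 32851 promoter entries hold such a hexamer in the same 250 bases.
Hoxd8 promoter: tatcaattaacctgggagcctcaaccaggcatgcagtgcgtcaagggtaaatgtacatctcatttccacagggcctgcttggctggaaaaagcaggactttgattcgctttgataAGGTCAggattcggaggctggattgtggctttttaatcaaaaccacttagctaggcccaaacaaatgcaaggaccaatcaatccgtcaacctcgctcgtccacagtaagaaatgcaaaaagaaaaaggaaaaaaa

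Hoxd10, Hoxd11 and Hoxd12, which are used in the posterior trunk and limb, had no read pair in any cluster2 library. In bulk they held 0 to 10, 0 to 15 and 0 to 8 read pairs per library, with 35, 34 and 14 in all. None of their anchors was in the cluster2 set, so neither a fold nor a p is given, and Hoxd12 fell below the filter. Hoxd13, used at the tip of the limb and the end of the trunk, had 0 to 17 read pairs per bulk library with a median of 1.5, and 3, 1, 0, 2 and 4 in cluster2. The groups overlapped. Its log2 difference of -1.66 ± 0.70 (SE, edgeR adjusted p = 0.0384) was not called without bulk replicate 7 (-0.97, adjusted p = 0.189) or bulk replicate 12, or without cluster2 replicate 1, 2 or 3. It was also not called with DESeq2 (-1.68, adjusted p = 0.0803), with a window of 2.5 kb around start sites (-0.98) or on replicates 1 to 5 (-0.997), and was 0.06 with library size alone. The 17 read pairs of the highest bulk library were in replicate 7. Of the 3 anchors of Hoxd13, only anchor 1 was in the cluster2 set, and it held all 10 cluster2 read pairs. Anchor 1 alone had 14 read pairs in bulk and a log2 difference of -0.17 ± 0.69 (SE, edgeR adjusted p = 0.815). The call for the gene thus counts read pairs at anchors that only the bulk set held. The 250 bases before the start of Hoxd13, at chr2:74506032-74506281, lie in anchor 1 and hold 31 CpG dinucleotides, against a median of 6 over all promoter entries. The one receptor hexamer is in capitals.
Hoxd13 promoter: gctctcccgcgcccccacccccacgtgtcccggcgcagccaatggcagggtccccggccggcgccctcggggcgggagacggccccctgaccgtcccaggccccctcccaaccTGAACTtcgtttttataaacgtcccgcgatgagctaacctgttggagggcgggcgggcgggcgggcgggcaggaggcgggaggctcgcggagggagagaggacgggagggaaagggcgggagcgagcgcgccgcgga

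**Figure D4:**
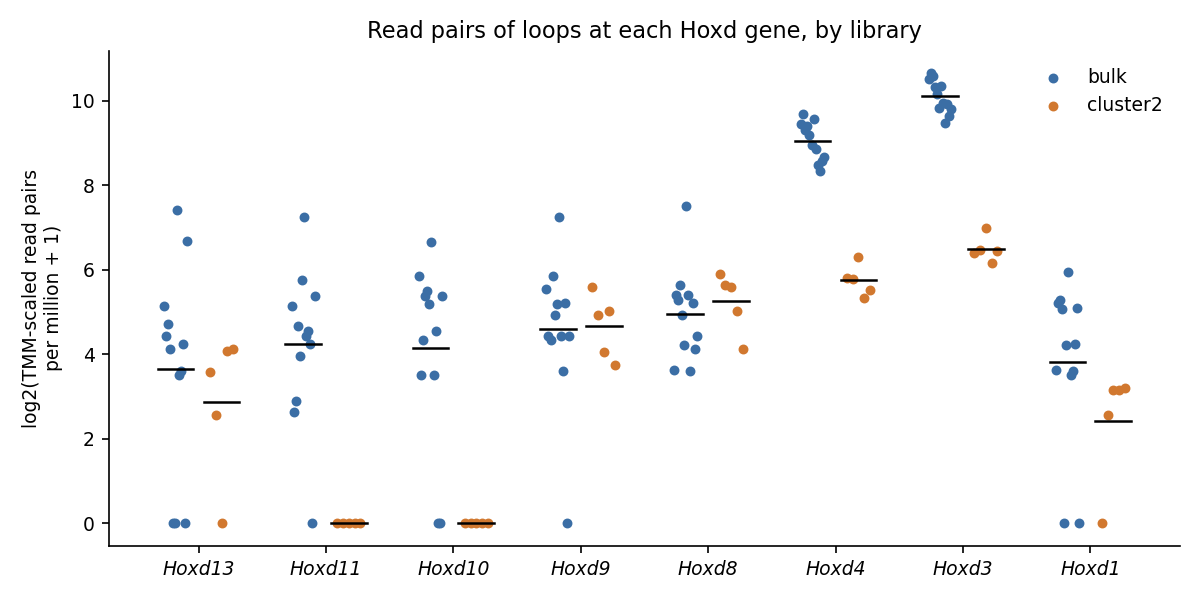
Read pairs of loops at each Hoxd gene on a log2 scale of TMM-scaled CPM plus 1 (y axis), with 1 point per library and bars at the group means, for the 8 genes tested (x axis, from the Hoxd13 end). Bulk and cluster2 points are apart at Hoxd4 and Hoxd3 and overlap at Hoxd9 and Hoxd8.

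At the level of single loops the data were sparse. Of the 621 loops, 587 were seen in bulk and 70 in cluster2, and 36 in both. The shared loops made 6.13% of the bulk loops and 51.4% of the cluster2 loops, and 380 of the bulk loops rested on 1 read pair. Only 6 loops passed the filter, and all 6 joined anchors 9, 11, 12 and 13 to each other within Hoxd3. These 6 were lower in cluster2, against 22.4% of all loops tested and 11.5% of those on shared anchors. They reached the minimum of 20 read pairs mainly through bulk, and no HoxD loop with most of its read pairs in cluster2 had enough to be tested, so the count says nothing about HoxD loops in general. The loop with most read pairs joined anchors 12 and 13 over 8.06 kb. It held 2 to 28 read pairs per bulk library, 134 in all, and 0, 0, 2, 1 and 1 in cluster2, with a log2 difference of -4.99 ± 0.51 (SE, edgeR adjusted p = 1.06e-19). Anchors 11 and 12 were joined by 0 to 25 read pairs per bulk library, 92 in all, and by 2, 3, 2, 0 and 1 in cluster2, with a log2 difference of -3.65 ± 0.47 (SE, edgeR adjusted p = 7.26e-13). Anchors 11 and 13 had 76 read pairs in bulk and 3 in cluster2. The other 3 loops led from anchor 9, at the first start of Hoxd3, to anchors 13, 12 and 11, with 21, 21 and 18 read pairs in bulk and 4, 2 and 3 in cluster2. These 3 were not called with library size alone.

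In cluster2 the loop of anchors 11 and 12 had the most read pairs, with 8. Next came one from anchor 12 to the promoter of Mtx2, 86.3 kb away, with 6 in cluster2 and 9 in bulk. Anchors 7 and 9, at the starts of Hoxd9 and Hoxd3, were joined by 6 read pairs in 4 cluster2 libraries and by 3 in 2 bulk libraries. Anchors 7 and 8, at Hoxd9 and Hoxd8, were joined by 5 read pairs in 3 cluster2 libraries and by none in bulk, although both anchors were in the bulk set. None of these last 3 loops reached the filter for a test.

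HoxD and HoxB had the largest differences of the 4 Hox clusters. The read pairs of HoxD as a share of those of the 4 Hox clusters together were 9.25 to 20.8% in bulk with a median of 12.9%, and 6.67%, 6.85%, 7.61%, 6.40% and 5.51% in cluster2. The groups did not overlap, and the means differed by -6.80 percentage points (exact permutation p = 0.000162, adjusted p = 0.000269). On shared anchors the share was 7.26 to 13.96% in bulk and 5.51 to 7.61% in cluster2, ranges that overlapped, and the mean difference shrank to -3.68 points. By TMM-scaled read pairs the log2 difference was -3.49 ± 0.21 (SE) for HoxB, -3.29 ± 0.24 for HoxD, -2.07 ± 0.21 for HoxC and -1.10 ± 0.25 for HoxA, with edgeR adjusted p-values of 1.58e-15, 1.12e-13, 5.63e-10 and 0.000200. On shared anchors the values were -3.84 for HoxB, -3.36 for HoxD, -2.70 for HoxC and -1.67 for HoxA. The difference between HoxD and HoxB was not tested, and the lower HoxD share does not set HoxD apart from HoxB. With library size alone HoxA was called higher in cluster2 at 0.67, HoxC was not called at -0.30, and HoxB and HoxD were called lower at -1.73 and -1.52. Of the 30 genes of the other 3 clusters, all were tested, 21 were lower and 3 were higher, with a median of -1.96, against 42.8% lower and 20.6% higher among all genes. Hoxb13 and Hoxc9 are among the 21 and count in the median, but they had no anchor in the cluster2 set, so their direction was fixed. On shared anchors 28 could be tested and 20 were lower, against 988 of all 9845 genes tested there. The 3 that were higher were Hoxc11, Hoxc12 and Hoxc13, at the end of HoxC that corresponds to Hoxd11, Hoxd12 and Hoxd13. Their bulk read pairs were 19, 27 and 13, and those in cluster2 51, 75 and 48, while Hoxd11 and Hoxd12 had none in cluster2. On shared anchors Hoxc13 was still called (1.45), and Hoxc11 (1.08, adjusted p = 0.0692) and Hoxc12 (0.72, adjusted p = 0.135) were not.

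**Figure D5:**
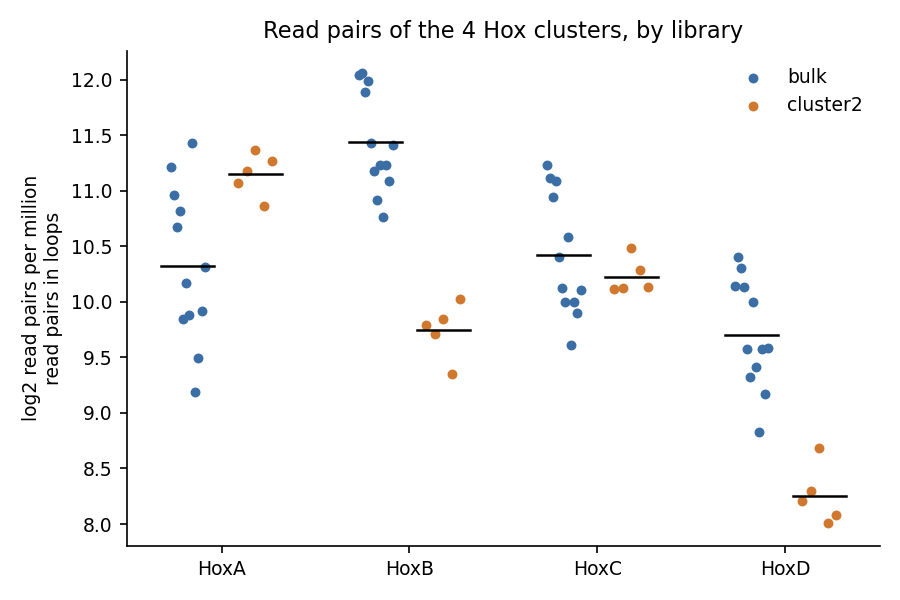
CPM of the library total on a log2 scale (y axis) for the 4 Hox clusters (x axis), with 1 point per library and bars at the group means, without TMM scaling. HoxB and HoxD are the clusters where the cluster2 points lie below all bulk points.

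Genes around the cluster were taken from a fixed list of 12, of which 11 were tested. In this list 6 genes were lower in cluster2 and 1 was higher, against 42.8% and 20.6% of all genes, with a median log2 difference of -1.24. Evx2, a homeobox gene next to Hoxd13, had 0 to 15 read pairs per bulk library, 33 in all, and none in cluster2, where it had no anchor. It is counted among the 6, with its direction fixed in that way. Wipf1, with 71 bulk read pairs and none in cluster2, also had no anchor there, so its direction was fixed too. Both genes count in the 6 and in the median of -1.24. On shared anchors 7 genes of the list could be tested, 1 was lower and 2 were higher. Among all 9845 genes tested there, 988 were lower and 2534 higher. Lnp, which encodes a protein of the endoplasmic reticulum, had 0 to 10 in bulk and 1, 2, 0, 2 and 7 in cluster2, with a log2 difference of -1.96 ± 0.54 (SE, edgeR adjusted p = 0.00192) that was not called with library size alone (-0.26, adjusted p = 0.673). Mtx2 had 1 to 22 in bulk and 9, 9, 3, 2 and 6 in cluster2, with a log2 difference of -1.24 ± 0.46 (SE, edgeR adjusted p = 0.0174) that turned to 0.52 with library size alone. The outer landmarks did not pass the test with TMM scaling. Atp5g3 was at -0.09 ± 0.38 (SE, edgeR adjusted p = 0.855) and Hnrnpa3 at 0.41 ± 0.25 (SE, edgeR adjusted p = 0.152). Both were called higher with library size alone, at 1.66 and 2.17, and Hnrnpa3 was also called higher on shared anchors, at 0.88, and with spans of at least 20 kb, at 0.60.

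Marker genes of other cell kinds were read beside these results, and their part in them was not tested. The counts below stand against 42.8% lower and 20.6% higher among all genes. The summed read pairs of 6 neural genes ran from 497 to 924 TMM-scaled CPM in bulk and from 71.0 to 136 in cluster2, and 3 of the 5 tested were lower. For 6 endoderm genes the sums were 102 to 414 in bulk and 474 to 616 in cluster2, with 2 higher and 1 lower, and Dab2 was at 0 in cluster2. For 6 genes of embryonic stem cells they were 134 to 502 in bulk and 158 to 308 in cluster2, with 3 of the 4 tested higher and 1 lower, and Nanog and Esrrb were at 0 in cluster2. Neither sorted marker was called, and their sums were 0 to 107 in bulk and 39.1 to 113 in cluster2.

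Bulk libraries varied more at HoxD than cluster2 libraries did relative to counting error. The chi-square over libraries of the HoxD count, given each library's total, was 14.02 per degree of freedom in bulk and 0.686 in cluster2. This measure grows with the number of read pairs, which was lower in cluster2. In CPM of the library total, HoxD averaged 879 ± 291 in bulk (SD, n = 12) and 310 ± 60.9 in cluster2 (SD, n = 5). Across the 12 bulk libraries HoxD read pairs in CPM went with those of HoxB (Pearson r = 0.852, permutation p = 0.000970, adjusted p = 0.00280; Spearman rho = 0.818, permutation p = 0.00209, adjusted p = 0.00836). They also went with those of HoxC (Pearson r = 0.835, permutation p = 0.00140, adjusted p = 0.00280; Spearman rho = 0.769, permutation p = 0.00497, adjusted p = 0.00994). With HoxA, Pearson r was 0.488 (permutation p = 0.109, adjusted p = 0.109) and Spearman rho 0.545 (permutation p = 0.0705, adjusted p = 0.0705). Without the 2 libraries farthest from the median, r was 0.775, 0.770 and 0.841 for HoxB, HoxC and HoxA. The library total also moved with HoxD (Pearson r = 0.678, permutation p = 0.0160, adjusted p = 0.0213; Spearman rho = 0.552, permutation p = 0.0665, adjusted p = 0.0705; r = 0.554 without 2 libraries), and its part in the other relations was not tested. These 4 relations were chosen with values known. Over all 17 libraries, the genes whose log2 CPM followed those of HoxD most closely were Snapc3, Tshz1 and Zadh2, with Spearman's rho of 0.966, 0.946 and 0.946 among 14106 genes without an anchor in the cluster, a description that the 2 groups largely set.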

How the data were processed

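H3K27ac HiChIP loops of 12 bulk and 5 cluster2 libraries were analysed. Per the labels and methods, the authors mapped reads to mm9 with HiC-Pro, called anchors and loops with hichipper and left out shallow replicates. The deposited values are raw counts of read pairs per loop, 1 file per library. Overlapping anchors of all libraries were joined, and 700 read pairs whose ends fell in 1 joined anchor were dropped. Loop totals per library ran from 50508 to 241202 and set the precision. Intervals cover counting error only, since they were computed on read pairs pooled over the libraries of a group and leave out the spread between libraries. HiChIP read pairs carry no molecular identifiers.

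A gene took every loop with 1 anchor no more than 5 kb from any of its start sites. Features with at least 20 read pairs in all and read pairs in at least 5 libraries were tested with edgeR 4.0.16 (quasi-likelihood, TMM) in R 4.3.3 on all 17 libraries, adjusted by Benjamini-Hochberg over each whole table at 0.05. DESeq2 1.42.0 was an alternative. Shares were compared with exact two-sided permutation tests, by listing all splits in Python 3.11.15 with numpy 2.4.6. There p is the share of splits with an absolute difference at least as large as that seen. Exact binomial intervals were computed with scipy 1.17.1. On simulated data for 14115 genes, comparing cluster2 with bulk, 100 genes were changed at each fold. The changed genes were drawn only from those with at least 100 read pairs in all. Of these, 32% of those changed 2-fold and 94% of those changed 4-fold were recovered, and 0.0934% of unchanged genes were called. Genes with fewer read pairs were not changed, and recovery was not split by the number of read pairs. The rates are therefore not shown to hold for genes with few read pairs, such as most HoxD genes.

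Named were the 9 members, Evx2, Lnp, Mtx2, Hnrnpa3, Atp5g3, Epcam and Cd38, the 5 loops with most read pairs in each group and all loops called where 10 or fewer, the 3 leading bulk partners on each side, and the 3 genes most like HoxD. Other names were chosen after their values were seen. The members and lists were chosen with earlier results of these data known. The flank segments, the split at Hoxd3, the promoter shares, the bulk correlations, the first start site and the fit on replicates 1 to 5 were added after seeing the data. Same-numbered libraries did not deviate together (correlations -0.0143 to 0.0104), so replicate numbers were not used as pairs. All replicate pairs differed by more than sampling noise.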

Additional observations from a re-analysis of the deposited data

Results flagged for a closer look

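Of 13 measures tested for a sample apart in the group of 5 cluster2 libraries, 1 had such a sample. The telomeric share of HoxD read pairs was 23.1% in cluster2 replicate 4, against 40.0 to 46.4% in the other 4, and the gap took 0.725 of the range, above Dixon's critical value of 0.71. Chance flags about 1 in 20 groups. That library held 13 HoxD read pairs, 3 of them telomeric.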

How the results depend on the processing

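The lower read pairs of the HoxD cluster held under all alternatives run, with log2 differences of -3.59 to -1.52. On shared anchors the difference in inside share became -23.9 points, that in telomeric share 13.96 points and that in median span 72344 bp, and with spans of at least 20 kb the span difference was 150686 bp. The cause was not tested. The centromeric share difference was 0.947 points after thinning all libraries to 50508 read pairs, 5.65 with the cluster extended by 10 kb and 5.25 with each loop counted once, none of which passed the test, and 4.14 to 9.50 leaving out 1 library. Read pairs to the centromeric side were -0.47 with library size alone and -1.11 on shared anchors.

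HoxD genes called lower fell from 6 to 2 with at least 50 read pairs, 2 thinned, 3 on shared anchors and 3 on replicates 1 to 5 without a block, and fewer genes could be tested with the higher minimum and on shared anchors. With library size alone 2 were higher. HoxD loops called lower went from 6 to 3 with library size alone, at least 50 read pairs, no filter, thinning or replicates 1 to 5, to 2 with spans of at least 20 kb and to 14 in bins of 25 kb. HoxD anchors called higher were 2 with library size alone, and 0 to 1 leaving out 1 library, with 1 without bulk replicate 7. Other Hox genes went from 21 lower and 3 higher to 13 and 10 with library size alone, and 1 was higher on shared anchors. Flanking genes went from 6 lower and 1 higher to 2 and 5 with library size alone and 1 and 2 on shared anchors, and 2 were higher with spans of at least 20 kb.

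Single values also changed sign. Hoxd13 was 0.055 with library size alone. Hoxd9 was 1.32 with library size alone, 0.66 on shared anchors, 0.51 with a 2.5 kb window and -0.78 to 0.027 leaving out 1 library, the highest without bulk replicate 7. Hoxd8 was 1.65 with library size alone, 0.016 with DESeq2, 0.14 on replicates 1 to 5 and -0.31 to 0.37 leaving out 1 library, with 0.37 without bulk replicate 7 and 0.11 without cluster2 replicate 5. Atp5g3 was 1.66 with library size alone, 0.015 with DESeq2, 0.14 on replicates 1 to 5, 0.42 on shared anchors, 0.064 thinned and -0.20 to 0.000429 leaving out 1 library, the highest without cluster2 replicate 3. Mtx2 was 0.52 and the far centromeric segment 0.72 with library size alone, and the near centromeric segment 0.32 on shared anchors.

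With the replicate number as a replicate block, on replicates 1 to 5, HoxD cluster read pairs were at -3.58, 3 HoxD genes and 3 HoxD loops were lower, Hoxd8 was 0.23 and Atp5g3 0.19. No cluster2 library correlated best with the bulk library of its own number.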
